A study of Homo sapiens with 6 samples.

Results

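The potassium channel genes described here are the 96 protein-coding genes of the RefSeq GRCh38.p14 table, out of 20033 on chromosomes 1 to 22, X and Y, whose symbol starts with KCN. They fall into 21 subfamilies by the letters after KCN. A peak was assigned to a gene when it overlapped the gene body or 5 kb beyond either end, the gene's window. The symbol alone decided which genes belong, although the family was picked with earlier results of these data known.

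Potassium channels let potassium leave or enter the cell and so set the resting potential of a neuron, the shape of its action potential and the rate at which it fires. Voltage-gated channels open on depolarisation, modifier subunits alter them without forming channels of their own, calcium- or sodium-activated channels answer to ions inside the cell, and inward rectifiers and two-pore channels hold the resting potential. Auxiliary subunits join these pores and change their gating or their place in the cell. In cortical interneurons, channels of the KCNC subfamily are known for the fast repolarisation that permits high firing rates. MYT1L is a zinc-finger protein of the nervous system, and fingers of its family recognise a short core, AAGTT.

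Chromatin occupancy was measured by CUT&RUN, in which an antibody bound to chromatin brings a nuclease to the protein of interest and the DNA cut free is sequenced. All 6 libraries came from wild-type H1 cells, a line of human embryonic stem cells, taken at day 30. An anti-MYT1L antibody was used for 4 of them, and IgG, which has no chromatin target and serves as the negative control, for 2. The series' design text calls the cells cortical interneurons derived from the stem cells, the sample labels give embryonic stem cells, and peak lists hold no expression values with which to check either. H1 is a single line, and no label says that the libraries came from separate cultures, so the spread between them may be technical.

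The peak lists differed in length and depth. MYT1L replicates 1 to 4 had 27926, 12310, 18966 and 30086 peaks, and the IgG lists had 976 and 998. Sequencing depth is not stated. The lowest background that peaks of a library shared, in fragments expected at a position, was 1.18, 0.421, 1.05 and 0.895 in MYT1L replicates 1 to 4 and 0.329 and 0.19 in the IgG libraries. It stands in for depth here and also depends on fragment length. MYT1L replicate 2 was the shallowest of the MYT1L libraries and had the shortest of their lists.

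The 250 bases before the start of 4 members are printed with the core in capitals, read on both strands as AAGTT or AACTT. KCNT2, KCNH5 and KCNMA1 were chosen, with their values known, because a region present in all 4 MYT1L libraries covered all 250 bases before a start at the outer end of the gene. KCNJ2 was added as a member with a core match under a region of 3 libraries. The sequences are from RefSeq GRCh38.p14, 5′ to 3′ on the strand of the gene. They lie at chr1:196608441-196608690 (minus strand, KCNT2), chr14:63045459-63045708 (minus, KCNH5), chr10:77637809-77638058 (minus, KCNMA1) and chr17:70169282-70169531 (plus, KCNJ2).
KCNT2: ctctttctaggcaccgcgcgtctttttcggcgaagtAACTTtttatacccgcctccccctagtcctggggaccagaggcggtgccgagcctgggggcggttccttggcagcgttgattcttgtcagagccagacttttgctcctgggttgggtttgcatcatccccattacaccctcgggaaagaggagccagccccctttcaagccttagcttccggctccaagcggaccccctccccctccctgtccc
KCNH5: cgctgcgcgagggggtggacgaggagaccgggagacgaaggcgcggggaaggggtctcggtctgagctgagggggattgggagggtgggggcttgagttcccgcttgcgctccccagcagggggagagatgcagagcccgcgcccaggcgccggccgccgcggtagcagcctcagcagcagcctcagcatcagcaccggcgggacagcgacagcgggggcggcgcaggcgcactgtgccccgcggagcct
KCNMA1: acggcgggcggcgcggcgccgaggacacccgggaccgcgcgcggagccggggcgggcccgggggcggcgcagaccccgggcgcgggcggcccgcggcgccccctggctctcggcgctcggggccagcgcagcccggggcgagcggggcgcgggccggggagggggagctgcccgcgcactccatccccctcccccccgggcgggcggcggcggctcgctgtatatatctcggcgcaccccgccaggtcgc
KCNJ2: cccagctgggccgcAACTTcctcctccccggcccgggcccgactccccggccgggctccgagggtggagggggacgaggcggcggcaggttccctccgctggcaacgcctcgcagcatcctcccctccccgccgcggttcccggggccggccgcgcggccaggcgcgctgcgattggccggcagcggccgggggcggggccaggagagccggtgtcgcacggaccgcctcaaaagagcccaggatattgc
KCNT2 and KCNJ2 each held 1 core match, and KCNH5 and KCNMA1 held 0. GC content was 60.4% for KCNT2, 74.0% for KCNH5, 85.6% for KCNMA1 and 77.6% for KCNJ2. A match is a description of the letters and not a site of binding.

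Peaks at potassium channel genes were found in every MYT1L library and were nearly missing from IgG. Replicates 1 to 4 of MYT1L had 118, 43, 76 and 141 such peaks, and the IgG libraries had 1 and 2. The lowest MYT1L library lay far above the higher IgG library, so the groups did not overlap. The mean number was 94.5 ± 43.6 (SD, n = 4) against 1.5 ± 0.707 (SD, n = 2), a 60.7-fold difference of geometric means, or 5.92 on the log2 scale. The exact permutation test over the 15 arrangements of the libraries gave a two-sided p of 0.133, which is the smallest this design allows. The whole lists did not overlap in length either, with 12310 to 30086 peaks for MYT1L and 976 and 998 for IgG. The number alone therefore does not set these genes apart.

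Since the MYT1L lists are longer, the share of each list that lay at these genes was compared too. It was 0.423%, 0.349%, 0.401% and 0.469% of peaks in MYT1L replicates 1 to 4 and 0.102% and 0.20% in the IgG libraries. The groups again did not overlap. The mean share was 0.410 ± 0.0496% (SD, n = 4) for MYT1L and 0.151 ± 0.0693% (SD, n = 2) for IgG. They differed by 0.259 percentage points, with p = 0.133 in the same exact permutation test. The IgG shares rest on 3 peaks in all. The share of each list at all protein-coding genes was not computed, so the difference is not shown to be particular to the members. A peak lay at 43.0% to 77.6% of all genes in MYT1L libraries and at 1.61% and 2.90% in IgG. For members it was 38.5% to 76.0% and 1.04% and 2.08%.

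**Figure D1:**
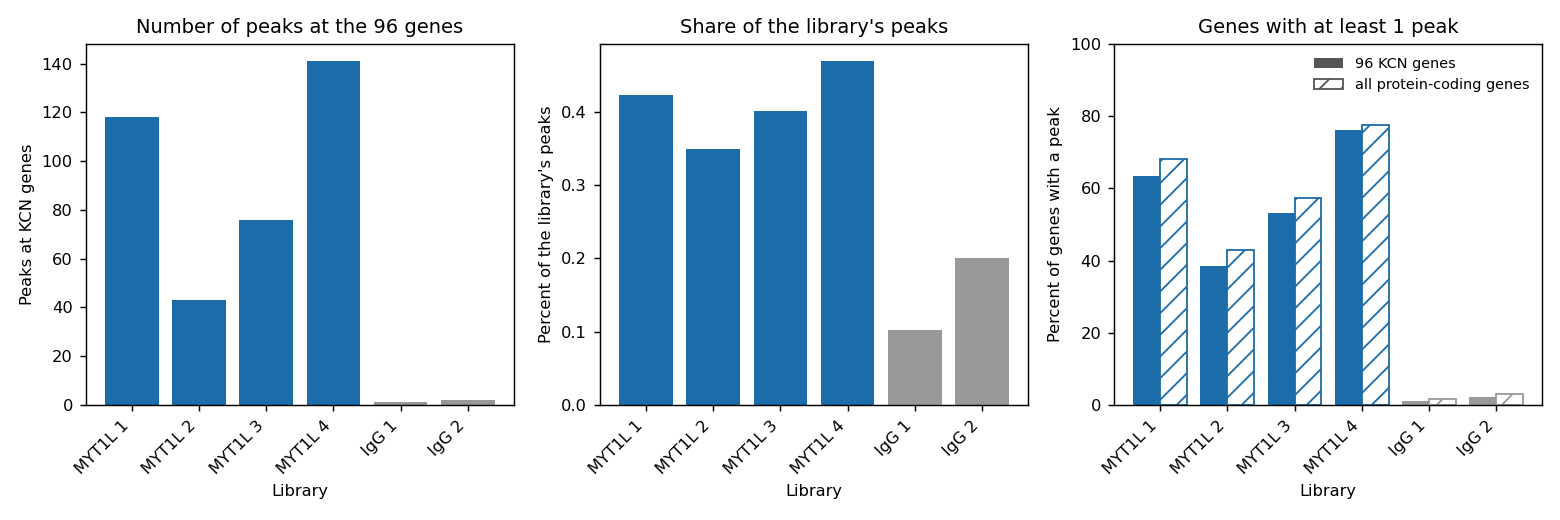
Bars show, for each of the 4 MYT1L (blue) and 2 IgG (grey) libraries, the number of peaks at the 96 KCN genes, their percent of the library's peaks, and the percent of genes with at least 1 peak for KCN genes (filled) and all protein-coding genes (hatched). In all 4 MYT1L libraries the percent of KCN genes with a peak lies a little below that of all genes, 76.0% against 77.6% in replicate 4 and 38.5% against 43.0% in replicate 2.

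A peak in at least 1 MYT1L library was found at 88 of the 96 members (91.7%), beside 84.1% of all protein-coding genes. Of the members, 21 had a peak in 1 MYT1L library, 22 in 2, 23 in 3 and 22 in all 4, not necessarily at the same place. Peaks of the MYT1L libraries that overlapped were joined into regions, giving 236 distinct regions at members and 237 pairs of a region and a member, since a single-library region lay in the windows of both KCNIP1 and KCNMB1. Of the pairs, 155 came from a single library, 40 from 2, 26 from 3 and 16 from all 4. The same split over all genes is not given here. Of the single-library pairs, 64 came from replicate 4 and 49 from replicate 1, the longest lists, against 16 from replicate 2.

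A region was called reproducible when at least 3 of the 4 MYT1L libraries had a peak in it and no IgG peak overlapped it. By this measure 37 of the 96 members (38.5%) had a reproducible region, beside 48.0% of all protein-coding genes. For a region in all 4 libraries the count was 15 of 96 (15.6%), beside 25.3%. The members' shares were thus below those of genes at large under both measures. KCNQ1 is among the 37 although an IgG peak lies elsewhere in its window, and 36 members remained when such windows were left out.

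The count moved with the libraries and the threshold used. Of the 42 reproducible regions, replicates 1 and 4 had a peak in all, replicate 3 in 35 and replicate 2 in 23. Without replicate 2, and with 2 of the remaining 3 libraries required, 56 members (58.3%) had a reproducible region, beside 63.3% of all genes. With only peaks of a −log10 q of at least 5 it was 12 members (12.5%), beside 30.6% of all genes, among them KCNA3, KCNB2, KCNH1, KCNH5, KCNIP4, KCNMB4 and KCNT2.

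Voltage-gated pore subunits had a reproducible region at 13 of 30 genes (43.3%), modifiers at 5 of 10 (50%), calcium- or sodium-activated channels at 4 of 8 (50%), two-pore channels at 5 of 15 (33.3%), inward rectifiers at 5 of 16 (31.2%) and auxiliary or regulatory genes at 5 of 17 (29.4%). The background over all genes was 48.0%, so no role stood far above it, and these small groups were not tested against each other. Gene length differs between them, with a median of 162 kb for the calcium- or sodium-activated channels and 16 kb for the modifiers. Per 100 kb of window, the modifiers had the most reproducible regions, 1.12, and the auxiliary genes the fewest, 0.205, beside 0.329 over all members. These densities rest on 5 regions in 446.5 kb of window for the modifiers and 6 in 2931 kb for the auxiliary genes. KCNIP4 alone, a gene of 1220 kb, makes up much of the auxiliary window. Density over all protein-coding genes is not given here, and densities were not adjusted for gene length.

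**Figure D2:**
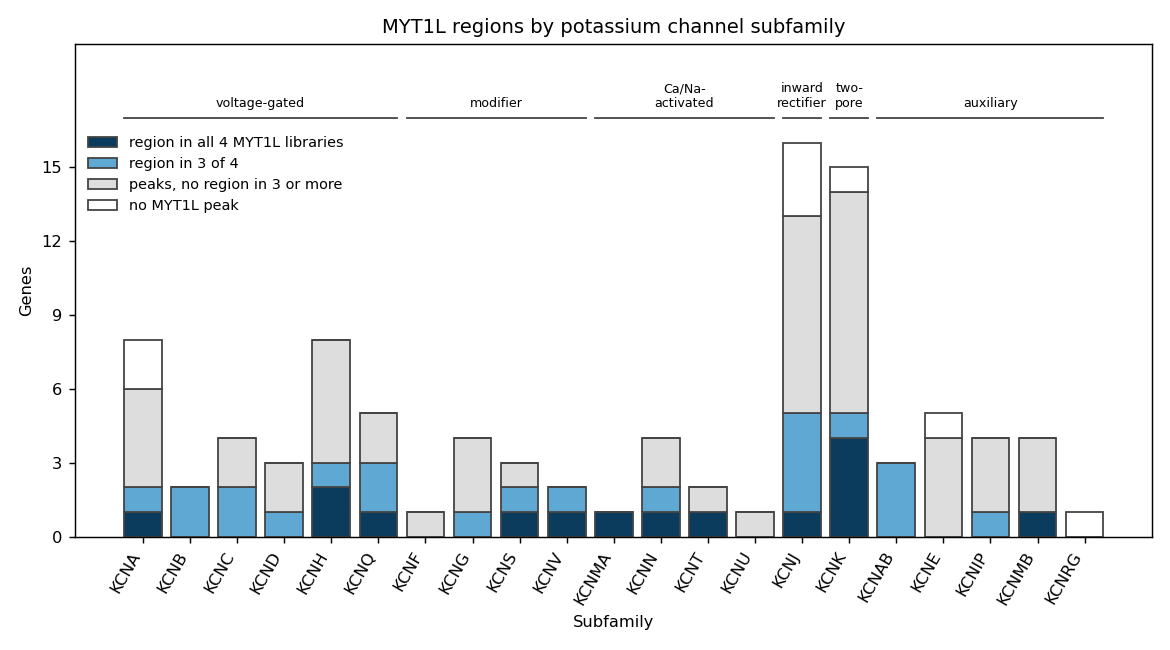
Stacked bars give the number of genes in each of the 21 subfamilies, grouped by role, with a region in all 4 MYT1L libraries (dark), in 3 of 4 (light blue), with peaks but no such region (grey) or with no MYT1L peak (white). KCNK has the most genes with a region in all 4 libraries, 4 of 15, and KCNE has 0 of 5 with a reproducible region. Over all protein-coding genes these shares are 25.3% and 48.0%.

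Among voltage-gated pores, KCNA3, a delayed rectifier known from lymphocytes and neurons, had a region in all 4 libraries. The region at its annotated outer start, chr1:110674482-110675410, had folds over background of 6.45, 5.43, 6.18 and 10.9 in MYT1L replicates 1 to 4 (mean 7.24 ± 2.48, SD, n = 4), from 18, 9, 14 and 33 fragments at the summit. Replicate 4 was the high library. The other member of the subfamily with a reproducible region was KCNA5, a delayed rectifier of the atrium, with folds of 4.38, 5.12 and 5.68 in replicates 1, 2 and 4. KCNA1 and KCNA2, subunits of axonal channels, had a single peak each, of fold 4.06 in replicate 3 and 5.06 in replicate 4.

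KCNB2, a delayed rectifier of neurons, had a region close to a gene end. The gene table used for strand has no entry for it, so which end is the start was not assigned. The folds were 7.98, 9.75 and 11.8 in replicates 1, 3 and 4, and replicate 2 had no peak there. The mean of 9.85 ± 1.92 (SD, n = 3) was the highest of the 42 reproducible regions.

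The KCNC genes described here belong to a subfamily that is prominent in fast-spiking interneurons. KCNC4 had a region at its start, chr1:110209991-110211305, with folds of 5.62, 4.22 and 5.83 in replicates 1, 3 and 4. KCNC2 had one 1953 bp inside the gene, at chr12:75207424-75207982, with folds of 4.88, 4.33 and 3.96 from 10, 8 and 8 fragments. KCNC1 had a region at its start in replicates 3 and 4 only (folds 4.63 and 4.56). Replicate 2 had no peak at KCNC1, KCNC2 or KCNC4.

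Of the KCND genes, which carry the transient A-type current, KCND3 had a region at its start with folds of 3.64, 4.67 and 5.65 in replicates 1, 2 and 4. KCND2 had a peak at its start of fold 10.6 in replicate 4, chr7:120273023-120273733, and none there in the other 3 libraries. That single-library value is among the higher folds at any member.

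KCNH5 and KCNH1 encode ether-a-go-go channels of the brain. The region at the start of KCNH5, chr14:63045182-63046279, had folds of 6.02, 5.88, 5.89 and 8.56 (mean 6.59 ± 1.32, SD, n = 4). It covers the KCNH5 sequence printed above, in which the core was not found. KCNH1 had a region at its start (5.79, 6.20 and 7.44 in replicates 1, 3 and 4) and a weaker one 22544 bp into the gene (4.58, 4.29 and 5.28). KCNH6, an ERG-type channel, had folds of 3.93, 4.78, 5.29 and 9.15, but its region lies 1265 bp beyond its 3′ end and at the start of the neighbouring gene DCAF7.

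KCNQ3 and KCNQ5 encode subunits of the M-current of neurons, and KCNQ1 a channel of heart and epithelia. KCNQ5 had a start region with folds of 5.24, 5.12 and 5.99 in replicates 1, 2 and 4, and KCNQ1 one inside the gene with 3.93, 3.78 and 6.94 in replicates 1, 3 and 4. KCNQ3 had 6 regions, none in more than 2 libraries.

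All 5 reproducible regions of the modifier genes lay near a start or an end of the gene. KCNS3 had a region in all 4 libraries 755 bp into the gene (chr2:17878346-17879328, folds 4.60, 5.23, 4.19 and 6.03), and KCNV2, known from photoreceptors, had one around 1010 bp into it (chr9:2718103-2719036, folds 6.55, 5.38, 4.66 and 5.17). KCNG3 had folds of 5.67, 5.46 and 7.13 in replicates 1, 3 and 4 at a region before its start that is also at the start of MTA3. KCNV1 and KCNS2 each had a region near a gene end in replicates 1, 3 and 4, of mean fold 6.36 ± 1.37 and 4.50 ± 1.05 (SD, n = 3). KCNG2 had 11 regions, more than any other member, and 0 were reproducible.

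KCNT2, a sodium-activated channel, was the member with 2 regions in all 4 libraries. The region at its start, chr1:196608353-196609239, had folds of 4.12, 5.45, 6.64 and 11.1 (mean 6.84 ± 3.05, SD, n = 4), and it covers the printed sequence with its core match. The region past its 3′ end, chr1:196224734-196225327, had 8.24, 7.74, 6.34 and 6.86 (mean 7.30 ± 0.855). The order of the libraries differed between the regions, with replicate 1 the lowest at the start and the highest at the 3′ end. Its relative KCNT1 had 7 regions, none in more than 2 libraries and none in replicate 4.

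KCNMA1 encodes the BK channel, which opens on calcium and depolarisation together. Its start region, chr10:77637036-77638701, had folds of 6.71, 5.07, 4.84 and 5.53 (mean 5.54 ± 0.832, SD, n = 4). KCNMB4, the BK channel's auxiliary subunit of the brain, had a region 167 bp inside a gene end (chr12:70366120-70367133) with 5.62, 8.18, 7.50 and 8.42 (mean 7.43 ± 1.27, SD, n = 4). Replicate 1 was the low library here, and the 8.18 of replicate 2 was the highest fold of that library at any member. KCNMA1 and KCNMB4 thus both had a region in all 4 libraries, beside 25.3% of all protein-coding genes, whereas KCNMB1, KCNMB2 and KCNMB3 had none in 3 or more. This pairing was not among the groups planned beforehand, and KCNMA1 is a long gene of 768 kb.

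KCNN2 and KCNN3 encode SK channels, which generate the afterhyperpolarisation. KCNN2 had a region at the start given in the promoter table, which lies inside the outer limits of the gene (chr5:114361279-114362926), with folds of 5.52, 4.79, 4.55 and 6.51 (mean 5.34 ± 0.880, SD, n = 4). KCNN3 had 2 reproducible regions, both inside the gene and neither near its start, with folds of 8.08, 5.32 and 7.87 in replicates 1, 2 and 4 for the stronger.

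**Figure D3:**
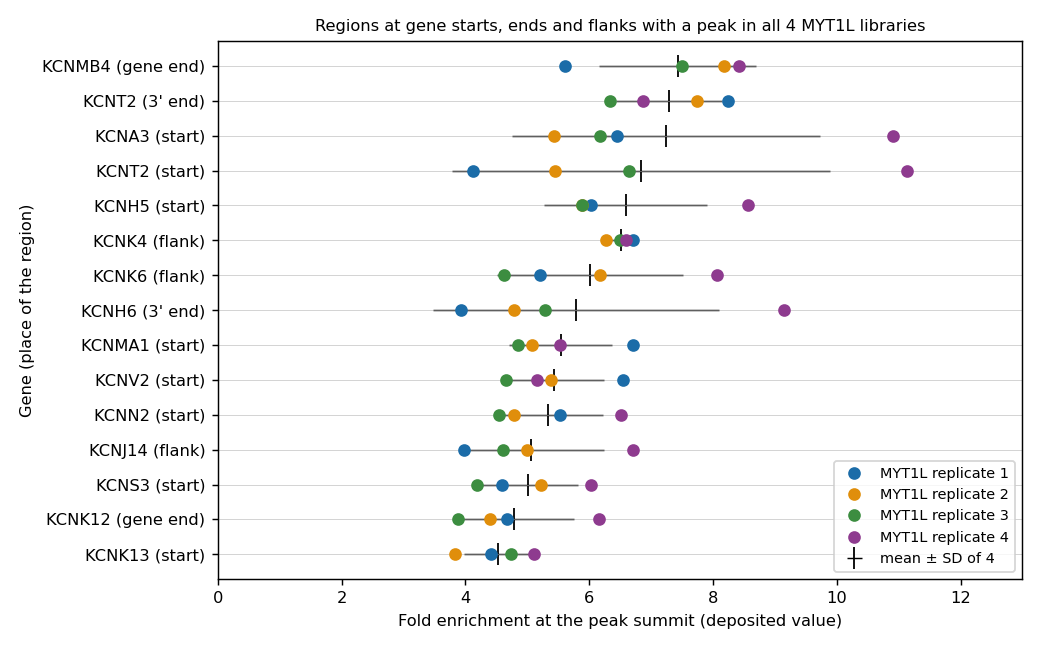
Each row is a region with a peak in all 4 MYT1L libraries at a start, an end or a flank of a KCN gene, ordered by mean fold, with its place in brackets. Points are the deposited fold in each library and the bar is the mean ± SD of the 4. Replicate 4 (purple) is the right-most point in many rows, as at KCNA3 (10.9) and the start of KCNT2 (11.1), while the 4 libraries nearly coincide at KCNK4 (6.27 to 6.71).

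Of the 4 subunits of the G-protein-gated inward rectifiers, which inhibitory receptors open, 3 had a reproducible region, beside 48.0% of all genes, and KCNJ9 had none. This group was formed after values were seen. KCNJ3 had folds of 4.63, 4.88 and 7.80, KCNJ5 had 3.99, 5.08 and 5.40, and KCNJ6 had 3.85, 4.43 and 4.75, each in replicates 1, 3 and 4. All 3 were missing in replicate 2. The regions of KCNJ3 and KCNJ5 lay at their starts and that of KCNJ6 lay 149302 bp from the nearer end of the gene. KCNJ2, a strong inward rectifier, had 4.81, 4.88 and 7.33 in the same 3 libraries at its start, over the printed sequence. KCNJ12 and KCNJ18 are near-identical copies whose reads may not be told apart, and neither had a region in 3 or more libraries.

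The two-pore channels supplied 4 of the 15 members with a region in all 4 libraries, KCNK4, KCNK6, KCNK12 and KCNK13, but 2 of these regions sit at neighbours. As 4 of the 15 two-pore genes, these members are a share close to the 25.3% of all protein-coding genes. At KCNK13, a halothane-inhibited channel, the region at the start (chr14:90061842-90062243) had folds of 4.41, 3.84, 4.73 and 5.10 (mean 4.52 ± 0.537, SD, n = 4), and a further one 1373 bp before the start had 5.70, 4.27 and 6.45 in replicates 1, 3 and 4. KCNK12, its close relative, had 4.67, 4.40, 3.89 and 6.16 at a gene end. KCNK3, an acid-sensitive channel, had a start region with 4.50, 4.26 and 5.69 in replicates 1, 3 and 4.

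Of the auxiliary genes, the KCNAB genes, whose products bind KCNA channels, had a reproducible region at 3 of 3, beside 48.0% of all genes, a subfamily singled out after values were seen. The region of KCNAB2 lies at the start of NPHP4 as well as its own, and that of KCNAB3 at the starts of TRAPPC1 and CNTROB. KCNAB1 had 5.47, 5.32 and 11.0 in replicates 1, 2 and 4, well inside the gene, and KCNAB2 had 3.26, 3.77 and 5.26 in replicates 1, 3 and 4 before its start, the lowest mean of the 42 (4.10 ± 1.04, SD, n = 3). KCNIP4, which binds KCND channels, had a start region with 5.89, 7.45 and 9.57 in replicates 1, 3 and 4 and another inside the gene. The KCNE genes, single-pass subunits that partner KCNQ1 and others, had 0 of 5 with a reproducible region, and 4 of them had a peak in a single library each. Their median length is 7.38 kb, with a range from 1.473 kb (KCNE5) to 65.52 kb (KCNE1). Of all protein-coding genes up to 6.43 kb, the class of KCNE4 and KCNE5, 29.3% had a reproducible region. It was 37.4% from 6.43 to 16.3 kb (KCNE2 and KCNE3) and 57.7% from 35.3 to 83.5 kb (KCNE1).

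Some regions counted for a potassium channel gene lie at the start of another gene. Of the 42 reproducible regions, 11 also lay in another protein-coding gene's window and 7 within 1 kb of another gene's start. For 5 members, every reproducible region was at a neighbour's start and not at their own: KCNAB3 (TRAPPC1 and CNTROB), KCNH6 (DCAF7), KCNJ14 (CYTH2), KCNK4 (ESRRA) and KCNK6 (CATSPERG). All of these but KCNAB3 are among the 15 members with a region in all 4 libraries. The folds at KCNJ14 were 3.97, 4.99, 4.60 and 6.70, those at KCNK4 were 6.71, 6.27, 6.50 and 6.59, and those at KCNK6 were 5.21, 6.17, 4.62 and 8.06. At KCNK4 the middle of the summits was 5345 bp from the gene end, outside its window. When regions in any other gene's window were left out, 27 members (28.1%) had a reproducible region, beside 29.5% of all genes, so the gap to the background was then small.

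Position was assigned for the 72 members with an annotated strand and start. Within 1 kb of the start, 20 of these 72 (27.8%) had a reproducible region, beside 41.7% of the 15841 protein-coding genes with such an entry. Within 1 kb of either end, counted over all members, it was 26 of 96 (27.1%), beside 38.9% of all genes. The 20 members held 21 start regions, 10 with the summit past the start and 11 before it, from 1373 bp before to 1010 bp after. The median was 33 bp before. The other 21 reproducible regions comprised 9 inside genes, 6 near an end of unassigned kind, 4 in flanks and 2 at 3′ ends.

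**Figure D4:**
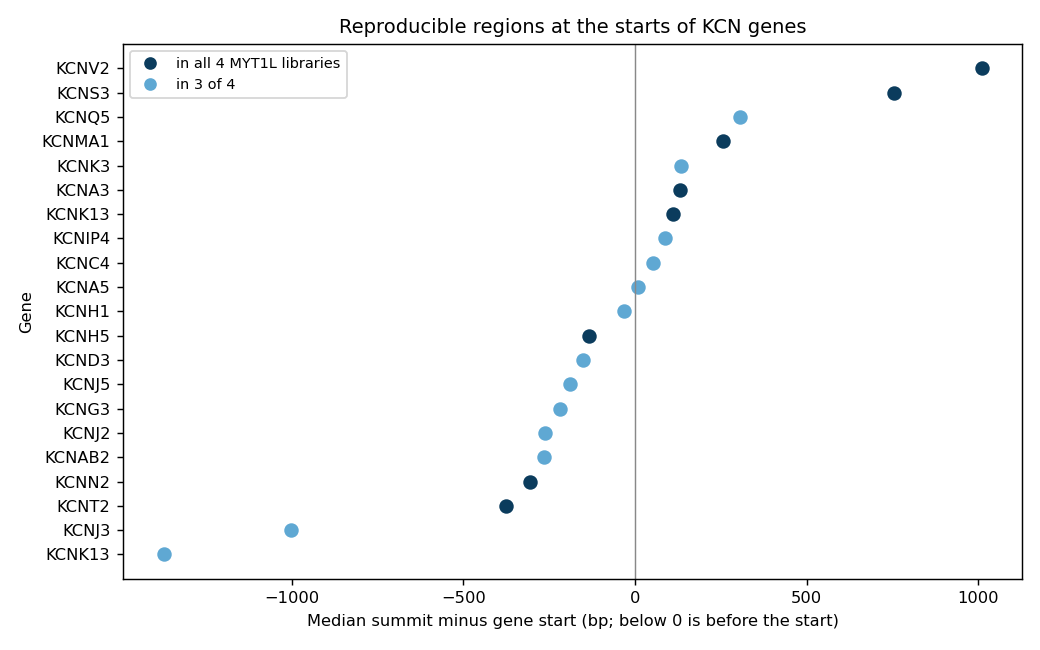
Points give the distance in bp from the gene start to the median summit of each of the 21 start regions at KCN genes, dark for regions in all 4 MYT1L libraries and light for 3 of 4. The upstream KCNK13 region (1373 bp before the start), KCNJ3 (1002 bp before), KCNS3 (755 bp after) and KCNV2 (1010 bp after) lie outermost.

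Reproducible regions were weaker at potassium channel genes than over the genome. The median of the mean folds was 5.54 for the 42 regions, beside 6.29 for all 11091 reproducible regions without an IgG peak, and 38.1% of the 42 were in all 4 libraries, beside 45.4% of all. Replicate 4 had the highest fold in 34 of the 42 (81.0%), beside 69.3% of all. The median peak at a member held 13, 9, 12 and 15 fragments in replicates 1 to 4. No test was made of these differences.

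Long genes offer more sequence in which a peak can fall, so shares were compared within 5 equal classes of gene length. From the shortest to the longest, 2 of 10, 7 of 23, 3 of 14, 6 of 17 and 19 of 32 members had a reproducible region, which is 20%, 30.4%, 21.4%, 35.3% and 59.4%. All protein-coding genes had 29.3%, 37.4%, 48.8%, 57.7% and 67.0%. The members lay below the background in each class, by the most in the middle class. Members with a reproducible region had a median length of 105.6 kb and the others 24.3 kb.

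The base composition of the 250 bases before the start was also set beside the regions. Members with a start region had a median GC content of 71.4% and a median of 25 CpG pairs, and the 52 without had 62.8% and 8. Over all genes the medians were 66.8% and 23 with a start region and 58.4% and 10 without, so the direction was the same at large. In 3 classes by CpG pairs (0 to 10, 11 to 23 and 24 to 59), a start region was found at 2 of 30 (6.67%), 6 of 16 (37.5%) and 12 of 26 (46.2%) members, beside 12.2%, 50.7% and 63.0% of all genes. The AAGTT core occurred in 19 of the 72 members' windows and in 4186 of the 15841 windows of all genes, 26.4% in each case. It was in 4 of the 20 members with a start region (20%) and in 15 of the 52 without (28.8%), and the longer AAAGTTT, which contains it, in 0 of 20 and 3 of 52. Over all genes the core was in 20.6% of the windows with a start region and in 30.6% of those without. The part of base composition in these shares was not tested, and the windows do not cover the whole of each region. At KCNA3, KCNV2, KCNS3, KCNJ3 and KCNQ5 the region covered 0 bases of the window read. KCNA3 and KCNV2 are the 2 members with a start region in the lowest CpG class. Of the 4 members with a start region and the core, the region covered the window at KCNT2 and KCNJ2, but not at KCNA3 and KCNS3.

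**Figure D5:**
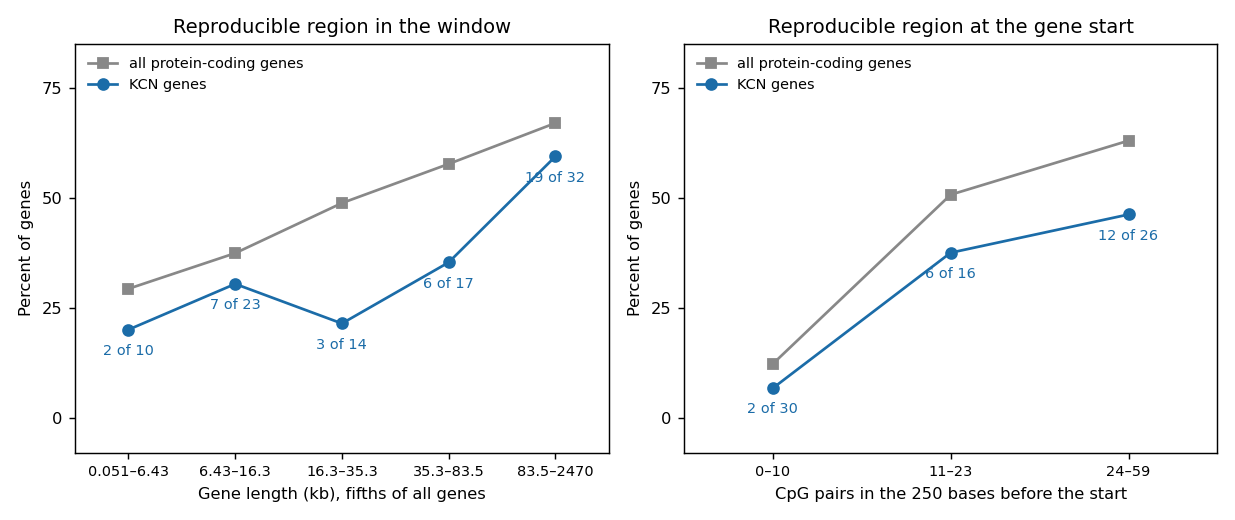
Lines give the percent of genes with a reproducible region by 5 equal classes of gene length (left) and with one at the start by 3 classes of CpG pairs before the start (right), for KCN genes (blue, with counts) and all protein-coding genes (grey). The blue line lies below the grey in every class, and both are highest in the longest and the most CpG-rich class.

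Other short gene lists were set beside the members. A reproducible region was found at 3 of 9 voltage-gated sodium channel alpha genes (SCN8A, SCN9A and SCN11A), at 4 of 10 calcium channel alpha1 genes (CACNA1C, CACNA1G, CACNA1H and CACNA1S) and at 5 of 13 partners and relatives of potassium channels, AMIGO1 and DPP10 among them. These are 33.3%, 40% and 38.5%, beside 38.5% of the potassium channel genes, and all lie below the 48.0% of all protein-coding genes. The lists differ in gene length, with medians of 152.9, 182.9 and 39.03 kb, beside 39.18 kb for the potassium channel genes and 24.13 kb for all genes. In the longest class, above 83.5 kb, 67.0% of all protein-coding genes and 59.4% of members had a reproducible region. The lists were not compared within length classes.

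IgG peaks lay in the windows of 3 members. KCNQ1 had 1 of fold 4.51 in IgG replicate 1 (chr11:2645386-2645637), and IgG replicate 2 had 1 at KCNQ3 (fold 5.04) and 1 at KCNK9 (fold 6.17). None overlapped a MYT1L peak. The MYT1L region of KCNQ1, chr11:2699174-2700400, lies elsewhere in the gene. The 8 members without a MYT1L peak in any library were KCNA7, KCNA10, KCNE4, KCNJ1, KCNJ13, KCNJ16, KCNK18 and KCNRG. At these depths a missing peak does not show that MYT1L was absent.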

How the data were processed

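The authors deposited 1 narrowPeak list per library, made with MACS2 on hg38 per the submitters' processing notes; the version, control library and threshold are not given in the sources used here. Each deposited peak has a fold enrichment (a ratio), a −log10 p, a −log10 q and a score, all the authors' own values, used to describe, order and filter peaks; mean folds over libraries average values of lists that differ in depth, and are descriptions. The lowest deposited −log10 q was 2.00. Replicate numbers are those of the titles, although names in the MYT1L lists run 1 number higher.

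Regions were peaks of MYT1L libraries chained by at least 1 bp of overlap and assigned to genes of RefSeq GRCh38.p14. The joining and assignment were tested on simulated data. The total of regions, 49028, and the number of peaks at members in each library equalled those from bedtools 2.31.1. The start of a gene was its outermost 5′ end or the start in the RefSeq promoter table, which differ for 9 members; 24 members have no strand entry. Whole-number fragments at summits were recovered from the deposited fold and −log10 p within 0.0002 on the latter scale. Group values were compared by exact permutation over 15 arrangements (Python 3.11.15, scipy 1.17.1). Intervals of counts are not given, as a peak list holds no counts per gene.

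Genes named with values are those with a region in all 4 MYT1L libraries, those with the most reproducible regions in each subfamily of at least 4 members, those with an IgG peak or no MYT1L peak, and a fixed set of neuronal channels (KCNA1, KCNA2, KCNC1, KCNC2, KCNC4, KCND2, KCNJ6, KCNN2 and KCNQ3 among them). Some genes that meet this rule are not reported here; counts include them. Others, such as KCNB2, KCNT1 and the KCNAB genes, and the CpG classes were chosen after values were seen. The members and lists were chosen with earlier results of these data known.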

Additional observations from a re-analysis of the deposited data

Results flagged for a closer look

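The region at the start of KCNH5, beginning at chr14 position 63045182, had a fold of 8.56 in MYT1L replicate 4, while the nearest of the other 3 libraries had 6.02 and the lowest 5.88. The gap took up 0.946 of the range of the 4 values, above Dixon's 95% critical value for 4 samples. This was the only such value among 31 groups of 4 libraries examined, and chance flags about 1 in 20 groups.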

How the results depend on the processing

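The number of peaks at potassium channel genes and their share of each list were higher in MYT1L under the 11 alternatives that could be run for each, and no p fell below 0.133. With only peaks of a −log10 q of at least 5, both IgG libraries had no peak at a member, so the number could not be compared and the direction of the share was fixed. No paired design is stated, and replicate numbers 1 and 2 are shared by the groups as numbers only. With the replicate block the differences were 5.65 on the log2 scale and 0.234 percentage points (p = 0.5 for each, exact permutation), and peak presence deviated together by a correlation of 0.00236 for number 1 and 0.00775 for number 2. The 37 members with a reproducible region became 12 at a −log10 q of at least 5, 19 with the same number of top peaks (12310) in each list, 58 with 2 libraries required, 15 with all 4, and 37 to 56 when each library was left out in turn. The 20 members with a start region became 5, 8, 30 and 8 under the same 4 settings, and 18 to 29 without each library. When a MYT1L library was left out, 2 of the remaining 3 were required. No share over all genes is given beside these start counts, so they are not read against a background. At either gene end, a setting chosen after seeing the data, 26 of 96 members had one. In the window or at either gene end, the share of members stayed below that of all genes under all 12 settings compared. The gap was least (28.1% against 29.5%) without regions in another gene's window. Of 77 subfamily counts 28 moved by over 1.5 times, and KCNE stayed at 0. With the stricter −log10 q, the mean folds of 7 named genes moved by more than 1 SD; leaving out a single library cannot move a mean of 3 or 4 values that far. Depth limits what a missing peak shows, most of all in MYT1L replicate 2.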
